A study of Homo sapiens with 16 samples.

Results

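The 10 genes described here encode the NF-κB subunits NFKB1, NFKB2, REL, RELA and RELB and the feedback genes NFKBIA, NFKBIE, NFKBIZ, TNFAIP3 and BCL3. They were chosen by symbol, 10 of the 62714 genes in the count files, and each symbol matched 1 gene. RNA-seq of ribosomal RNA depleted RNA gave 16 libraries from 4 human B-cell lymphoma lines, in which CREBBP, a histone acetyltransferase and transcriptional coactivator, or the AAVS safe-harbour site, as the control, had been cut with pLENTI-CRISPRv.2 and 4 guides per target. Each targeted population was kept as a pool of differently edited cells, not a clone, and was sequenced once untreated (baseline) and once after 10 ng/ml of IL4 for 4 h. This gave 4 groups of 4 libraries, named AAVS or CREBBP with baseline or IL4, in which the line was the replicate and all cells carried the Cas9 vector. Line 1 was SU-DHL4 and line 4 was DOHH2. The labels gave OCI-LY7 and SU-DHL10 to lines 2 and 3 in conflicting order, so these are called line 2 and line 3.

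NF-κB factors are dimers of REL-homology proteins that wait in the cytoplasm bound to IκB proteins. In the canonical pathway, the IKK complex phosphorylates IκB and frees dimers of p50 (from NFKB1) with RELA or REL. In the non-canonical pathway, the kinase NIK leads to processing of NFKB2 to p52, which pairs with RELB. Several target genes are themselves brakes on the pathway: NFKBIA and NFKBIE encode IκBα and IκBε, which recapture dimers, and TNFAIP3 encodes A20, a ubiquitin-editing enzyme that dampens the signal upstream of IKK. NFKBIZ and BCL3 encode nuclear IκB proteins that modulate p50 and p52 on DNA. In B cells the pathway is driven by the antigen receptor, CD40 and BAFF, and A20 is often lost in B-cell lymphoma, whereas IL4 signals mainly through JAK kinases and STAT6.

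The sequences below are shown because these genes are known for feedback through κB sites in their own promoters. The RefSeq promoter table (GRCh38.p14) matched 8 of the 10 genes with 13 start sites. RELB and NFKBIE had no entry. The 250 bases before each start were searched on both strands for a κB motif of 10 bases (GGG, any 3 bases, then TTCC), and matches are in capitals. Such a match was in 5.67% of all 35116 promoters and in those of 6 of the members. The NFKBIA promoter (chr14:35404750-35404999, minus strand) lies directly upstream of the gene and holds a match at bases 81 to 72 before the start. The NFKBIZ promoter (chr3:101827740-101827989, plus strand), also upstream of the gene, holds 1 at bases 223 to 214 before the start of its first transcript.
NFKBIA promoter: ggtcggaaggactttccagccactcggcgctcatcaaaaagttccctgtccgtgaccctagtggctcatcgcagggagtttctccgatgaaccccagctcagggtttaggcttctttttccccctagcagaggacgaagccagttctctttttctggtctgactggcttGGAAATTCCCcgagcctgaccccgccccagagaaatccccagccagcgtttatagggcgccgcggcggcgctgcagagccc
NFKBIZ promoter: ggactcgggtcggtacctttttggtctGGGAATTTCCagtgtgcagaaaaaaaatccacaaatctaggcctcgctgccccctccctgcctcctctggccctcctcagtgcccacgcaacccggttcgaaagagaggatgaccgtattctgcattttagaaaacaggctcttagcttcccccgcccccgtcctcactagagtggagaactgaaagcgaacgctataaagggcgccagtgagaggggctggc

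For the other 4 genes the 30 bases around the matches are shown, all on the plus strand. TNFAIP3 (chr6:137867188-137867217) and REL (chr2:60881518-60881547) each held a pair of matches, which overlap in REL. NFKB1 (chr4:102501300-102501329) held 1 match. NFKB2 held 3 over a pair of start sites (site a at chr10:102394462-102394491, site b at chr10:102394490-102394519 and site c at chr10:102395674-102395703). The NFKB1 window lies upstream of the GENCODE gene, and the REL, TNFAIP3 and NFKB2 windows touch an annotated exon of the gene.
TNFAIP3: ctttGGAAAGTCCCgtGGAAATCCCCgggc
REL: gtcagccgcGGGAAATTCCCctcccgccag
NFKB1: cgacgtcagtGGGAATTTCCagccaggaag
NFKB2 site a: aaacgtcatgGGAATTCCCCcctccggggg
NFKB2 site b: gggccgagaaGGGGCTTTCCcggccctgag
NFKB2 site c: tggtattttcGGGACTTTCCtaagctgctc
A STAT6 motif (TTC, any 4 bases, then GAA), found in 5.38% of all promoters, and a CREB motif (TGAC, then GTCA), found in 1.65%, were searched on both strands as well and had no match in the members' windows. A match is a stretch of letters, and binding was not measured.

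Library totals ranged from 19649735 to 61981976 counts, with the lowest in AAVS IL4, whose totals reached 47716763. CREBBP itself stood at 205 to 360 CPM (the count per 1000000 counts of the library) in AAVS baseline and 187 to 278 CPM in CREBBP baseline. These ranges overlap, and a gene-level count does not show small edits. The paper reports loss of CREBBP protein in the targeted pools by immunoblotting. The 4 AAVS IL4 libraries stood apart from the other 12 in marker genes of other cell types. IGHM, the IgM heavy chain, was at 138 to 1711 CPM in AAVS IL4 and at most 0.0696 CPM in the others, and CD44, an adhesion receptor of naive and memory B cells and T cells, at 67.5 to 941 CPM against at most 0.472. Of 13 T-cell genes 10 were above every other library, and the summed level of the 13 was 48.1 to 271 CPM against 11.1 to 48.9. For naive and memory B cells this held for 6 of 8 genes (558 to 3687 against 56.0 to 298 CPM summed) and for plasma cells for 3 of 7 (390 to 2234 against 125 to 1048). It held for 1 of 6 NK cell genes (3.33 to 19.1 against 0.487 to 2.16), 1 of 10 myeloid genes (7.60 to 25.0 against 1.12 to 13.6) and 1 of 9 stromal genes (3.30 to 43.0 against 0.199 to 51.2). The same held for 0 of 7 B-cell and germinal centre genes of the lines (2675 to 4228 against 2458 to 4515) and for 5.74% of genes with at least 1 CPM in a library. The stromal gene was COL3A1, at no more than 0.509 CPM. Myeloid FCGR1A, S100A8, S100A9 and CD163, NK cell KLRF1 and NCR1, and stromal LUM, VWF and CDH5 were under 0.5 CPM in every library. Every result below that uses AAVS IL4 rests on these 4 libraries. In such bulk RNA, more cells of a type and more RNA per cell cannot be told apart.

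By the median of the 12 libraries outside AAVS IL4, REL was the most abundant of the 10 genes and NFKBIZ the least. Per kilobase of merged exons, the median level of REL, the c-Rel subunit typical of B cells, was 25.7 CPM per kb (range 9.11 to 73.6). RELB followed at 16.5, NFKBIA at 13.0, RELA, the p65 subunit, at 10.7, NFKB2 at 7.60, NFKB1 at 7.19 and NFKBIE at 6.90 CPM per kb. BCL3 stood at 4.65, TNFAIP3 at 2.27 and NFKBIZ at 0.200 CPM per kb. In line 2 NFKBIZ was not the lowest, with a median of 4.28 CPM per kb against 3.73 for BCL3. The ranges of all neighbours in this order overlapped. The order of the middle genes depends on the length used: per kilobase of the canonical transcript, NFKB1 moved from place 6 to place 3 (27.8 CPM per kb) and RELB from place 2 to place 5 (21.9), while REL (39.7), TNFAIP3 (3.13) and NFKBIZ (0.301) kept places 1, 9 and 10.

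Some of these genes were uneven over the lines in the 8 baseline libraries. NFKBIZ was at 31.4 and 25.3 CPM in line 2, and between 0.277 and 1.31 CPM in lines 1, 3 and 4. NFKB1 was also higher in line 2 (157 and 201 CPM) than in every other baseline library (93.5 to 122 CPM). These were 2 of 10 members with line 2 above all other lines, close to the 18.0% of the 19646 genes with at least 1 CPM in a library. REL was high in line 4 (1261 and 814 CPM) and ranged from 307 to 795 CPM in the other lines. BCL3 ranged from 11.5 to 24.7 CPM and NFKBIE from 11.2 to 19.7 CPM.

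**Figure D1:**
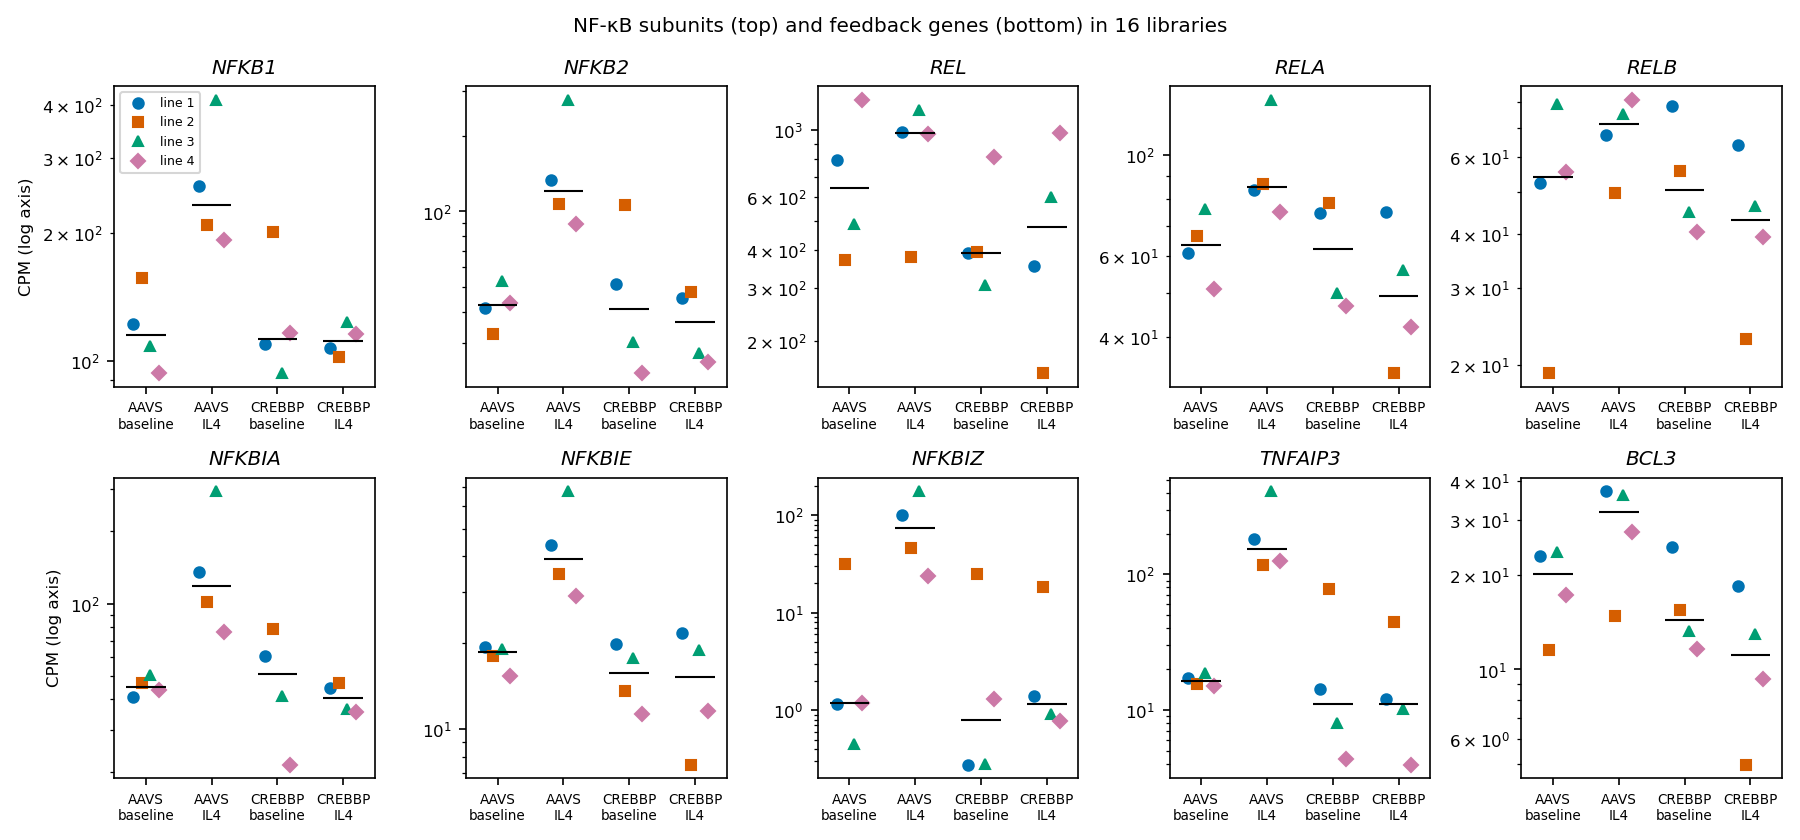
Level of each gene (CPM, logarithmic axis) in the 16 libraries, by group. Each symbol is 1 line and the bar is the group median. TNFAIP3 and NFKBIE were higher in all 4 AAVS IL4 libraries than in any other library, and line 2 stood high in NFKBIZ outside AAVS IL4.

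The first comparison asked how IL4 changed the 10 genes in control pools. All 10 had a fitted level above baseline, with a median log2 fold change of 1.11 against 0.01 for all 20310 genes tested. TNFAIP3, NFKB2, NFKBIA and NFKBIE rose at an adjusted p under 0.05 (edgeR's quasi-likelihood test, blocked on line, Benjamini-Hochberg over all genes), which makes 4 of 10 members where 2.39% of all genes were called higher. Of these, TNFAIP3, NFKBIA and NFKBIE are brakes on the pathway and NFKB2 is a subunit. The AAVS IL4 libraries used here are those high in IGHM, CD44 and T-cell genes, whose part in these changes was not tested.

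TNFAIP3 was at 17.1, 15.4, 18.6 and 15.0 CPM in AAVS baseline of lines 1 to 4, and at 182, 117, 411 and 125 CPM after IL4. Every IL4 library was far above every baseline library, and above each of the 12 other libraries. The fitted rise was 3.40 on the log2 scale (SE 0.27, edgeR adjusted p = 0.00464), or 10.6-fold.

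NFKB2, the p100 precursor of p52, was at 41.5, 32.6, 52.9 and 43.4 CPM at baseline and at 133, 108, 278 and 88.9 CPM after IL4. The groups did not overlap, and the log2 rise was 1.65 (SE 0.23, edgeR adjusted p = 0.0225). NFKBIA went from 40.9, 46.7, 50.5 and 43.8 CPM to 135, 102, 293 and 76.0 CPM. Baseline was nearly even across the lines and the IL4 libraries were spread widely, with line 3 high and line 4 low, for a log2 rise of 1.48 (SE 0.27, edgeR adjusted p = 0.0492). NFKBIE moved from 19.3, 18.0, 19.0 and 15.3 CPM to 43.9, 34.6, 67.5 and 29.2 CPM, again with no overlap, and rose by 1.16 on the log2 scale (SE 0.19, edgeR adjusted p = 0.0357).

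NFKB1, the p105 precursor of p50, was at 122, 157, 108 and 93.8 CPM at baseline and at 258, 208, 412 and 193 CPM after IL4. Its groups did not overlap either, but the test missed the threshold (log2 fold change 1.05, SE 0.23, edgeR adjusted p = 0.0853). These 5 genes, NFKB1, NFKB2, NFKBIA, NFKBIE and TNFAIP3, were the members with every AAVS IL4 library above every AAVS baseline library, as were 7.68% of genes with at least 1 CPM in a library. NFKBIE and TNFAIP3 were also above each of the other 12 libraries, as were 5.74% of genes.

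NFKBIZ had the largest fitted change of the members and the least even one. It was at 1.16, 31.4, 0.452 and 1.20 CPM at baseline and at 101, 46.1, 177 and 23.9 CPM after IL4. In line 3 the ratio was 392 and in line 1 it was 87.5, against 19.9 in line 4 and 1.47 in line 2, where baseline was already high. The fitted log2 fold change was 5.07 (SE 1.42, edgeR adjusted p = 0.162), and without line 2 it was 6.27 with an edgeR adjusted p of 0.00984, in a fit that called 4.93% of all genes against 2.4% with every line.

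The remaining subunits and BCL3 showed log2 fold changes between 0.24 and 0.52 and none was called. RELA stood at 51.0 to 76.0 CPM at baseline and 74.9 to 132 CPM after IL4, with a ratio above 1 in 4 of 4 lines (log2 fold change 0.49, SE 0.16, edgeR adjusted p = 0.214). BCL3 was also above its baseline in each line, with ratios of 1.29 to 1.61 (0.52, SE 0.18, adjusted p = 0.238 by edgeR). RELB (0.48, SE 0.30) and REL (0.24, SE 0.27) were above baseline in 3 of 4 lines, and the exceptions were line 3 for RELB (ratio 0.949) and line 4 for REL (0.772). Without line 1, TNFAIP3 alone remained called (edgeR adjusted p = 0.0401), and the genes called in all went from 488 to 64 (0.31%). NFKB2 then had a log2 fold change of 1.63 with an edgeR adjusted p of 0.138, NFKBIA 1.39 with 0.272 and NFKBIE 1.15 with 0.256, close to the values with all lines. NFKBIE lost its call without any 1 line (edgeR adjusted p = 0.05, 0.0602 and 0.0961 without lines 2, 3 and 4), and NFKBIA without line 2 (0.0528) or line 4 (0.0789).

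Within AAVS IL4, line 3 was the highest library for 8 of the 10 genes, all but RELB and BCL3, and for 32.6% of genes with at least 1 CPM in a library. IGHM was highest in the same library, at 951, 711, 1711 and 138 CPM in lines 1 to 4, as was CD44, at 455, 67.5, 941 and 158 CPM. NFKB1, NFKB2, NFKBIA, NFKBIE and NFKBIZ followed the order of IGHM over the 4 lines, as did 6.77% of genes. CD44 had another order, which REL and TNFAIP3 followed, as did 9.89% of genes. The relation rests on 4 libraries and was not tested.

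**Figure D2:**
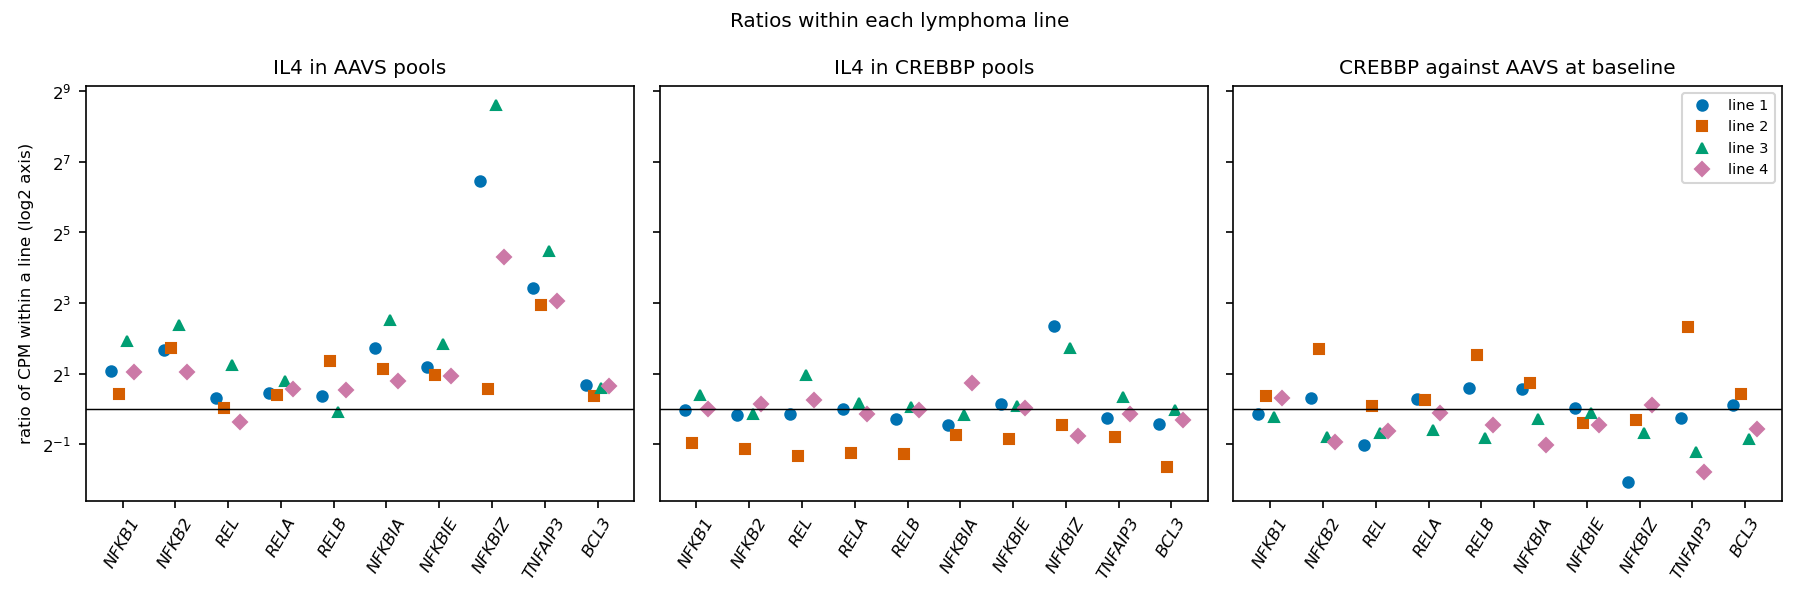
Ratio of CPM within each line for the 10 genes (log2 axis; 1 is no difference), for IL4 over baseline in AAVS pools, IL4 over baseline in CREBBP pools, and CREBBP over AAVS pools at baseline. TNFAIP3 ratios in AAVS pools were 7.63 to 22.1, and in CREBBP pools line 2 lay below 1 for all 10 genes.

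The second comparison asked the same of pools with CREBBP targeted. None of the 10 genes was called, and neither was any of the 18282 genes tested with edgeR (0.0% called; 502 genes and 1 member, BCL3, at an unadjusted p under 0.05). The DESeq2 Wald test called 1 gene and no member, and limma-voom called 0. Fitted changes of the members were small: 9 were below baseline, with a median log2 fold change of -0.14 against -0.04 for all genes.

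TNFAIP3 was at 14.2, 77.6, 8.01 and 4.36 CPM in CREBBP baseline and at 11.9, 44.5, 10.2 and 3.94 CPM in CREBBP IL4. The groups overlapped widely and line 2 was high in both (log2 fold change -0.17, SE 0.15, edgeR adjusted p = 0.924). NFKB2 was at 51.4, 106, 30.5 and 22.8 CPM before and 45.5, 47.9, 27.6 and 25.4 CPM after IL4, and NFKBIA at 60.8, 78.1, 41.4 and 21.5 CPM before and 44.5, 46.9, 36.6 and 35.6 CPM after. Their log2 fold changes were -0.28 (SE 0.17) and -0.12 (SE 0.21). NFKBIE (-0.10, SE 0.16), NFKB1 (-0.10, SE 0.16) and REL (-0.01, SE 0.25) were close to 0 relative to their errors.

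NFKBIZ was at 0.277, 25.3, 0.281 and 1.31 CPM before and 1.41, 18.3, 0.928 and 0.774 CPM after IL4. It was higher with IL4 in lines 1 and 3, where it rested on 11 and 13 counts at baseline, and lower in lines 2 and 4 (log2 fold change 0.58, SE 0.45, edgeR adjusted p = 0.924). BCL3 was lower with IL4 in 4 of 4 lines, with ratios of 0.320 to 0.983. Its log2 fold change was -0.55 (SE 0.19), with an unadjusted p of 0.0193 and an edgeR adjusted p of 0.924. RELB (-0.34, SE 0.17) and RELA (-0.26, SE 0.17) were below baseline in 3 and 2 of 4 lines.

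Line 2 differed from the rest. Its CPM was lower with IL4 for all 10 genes in CREBBP pools, with ratios from 0.320 for BCL3 to 0.724 for NFKBIZ and a median of 0.481. In the same pair of libraries 76.4% of 17912 genes were lower, with a median ratio of 0.656. In lines 1, 3 and 4, between 3 and 7 members were lower and median ratios were 0.896, 1.09 and 0.988. No member separated the CREBBP IL4 and CREBBP baseline groups, and few of all genes did (0.341%). At so low a share, a count of 0 in 10 members cannot tell whether they differ from all genes.

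CREBBP pools were then set against AAVS pools at baseline, where IGHM and CD44 were at or near 0. No member was called and none of 18936 genes was called by edgeR (0.0% called; 2422 genes and 0 members at an unadjusted p under 0.05). DESeq2 called 514 genes and limma-voom 39, with 0 members in each. Fitted log2 fold changes were above 0 for 5 members and below 0 for 5, with a median of -0.04 against -0.03 for all genes.

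For TNFAIP3, NFKB2, RELB and NFKBIA the standard errors were larger than the fitted changes, and the lines went different ways. TNFAIP3 in CREBBP baseline relative to AAVS baseline had ratios of 0.831, 5.04, 0.430 and 0.291 in lines 1 to 4, NFKB2 had 1.24, 3.25, 0.575 and 0.526, and RELB had 1.5, 2.91, 0.565 and 0.727. Line 2 was higher in the CREBBP pool for each of these genes and lines 3 and 4 were lower in each. Line 1 was also higher for NFKB2 and RELB, and lower for TNFAIP3. NFKBIA was higher in lines 1 and 2 and lower in lines 3 and 4, with ratios of 1.49, 1.67, 0.819 and 0.490. The fitted log2 fold changes were -0.23 for TNFAIP3 (SE 0.55), 0.15 for NFKB2 (SE 0.38), 0.30 for RELB (SE 0.33) and 0.11 for NFKBIA (SE 0.28). Without line 2, TNFAIP3 was at -0.96 (edgeR adjusted p = 0.108), and 0 of 10 members were called although 515 genes then were.

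In line 3 all 10 genes were lower in the CREBBP pool, with a median ratio of 0.625 where the median of all genes was 0.844 and 62.5% of genes were lower. In line 4, 8 were lower (median ratio 0.700), where all genes had a median of 0.941 and 55.4% were lower. In line 1, 6 were higher (1.05), against a median of 0.986 and 48.9% of all genes. In line 2, 8 were higher (1.31), against a median of 0.928 and 41.5% of all genes. REL, the most abundant subunit, was lower in 3 of 4 lines, with ratios of 0.491, 1.06, 0.628 and 0.645 (log2 fold change -0.46, SE 0.22, edgeR adjusted p = 0.42). NFKBIZ (-0.54, SE 0.37), NFKBIE (-0.13, SE 0.20), BCL3 (-0.12, SE 0.24), RELA (0.05, SE 0.20) and NFKB1 (0.17, SE 0.19) had adjusted p-values of 0.565 to 0.934 by edgeR.

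After IL4, CREBBP pools were again set against AAVS pools. All 10 genes had a lower fitted level in CREBBP pools, with a median log2 fold change of -1.23 against -0.05 for all 19581 genes. TNFAIP3 (-3.79, SE 0.80, edgeR adjusted p = 0.0459) and NFKBIE (-1.33, SE 0.25, edgeR adjusted p = 0.036) fell, 2 of 10 members where 3.42% of genes were called lower. In every library of CREBBP IL4, NFKB1, NFKB2, NFKBIA, NFKBIE, NFKBIZ, RELA and TNFAIP3 were below every AAVS IL4 library, 7 of 10 members where 14.0% of genes showed this. The AAVS IL4 libraries, with their IGHM at 138 to 1711 CPM, were the higher arm throughout, and the part of their marker genes of other cell types was not tested.

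TNFAIP3 in CREBBP IL4 was at 3.94 to 44.5 CPM, against 117 to 411 CPM in AAVS IL4, and its ratios were 0.0654, 0.379, 0.0247 and 0.0316 in lines 1 to 4. Line 2 was the nearest to its control and line 3 the farthest. NFKBIE was at 21.6, 7.5, 18.8 and 11.5 CPM, with ratios between 0.217 and 0.491. Without line 1, 3 or 4 neither gene was called (TNFAIP3 0.177, 0.17 and 0.135, NFKBIE 0.123, 0.144 and 0.117, all edgeR adjusted p), and the share of all genes called went from 4.39% to 0.524%, 0.124% and 1.63%. Without line 2 there were 7 members called, with NFKBIZ at -6.01 (edgeR adjusted p = 0.00104), and 12.4% of all genes.

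The other members lay below AAVS IL4 by amounts that missed the threshold. BCL3 (-1.13, SE 0.26, edgeR adjusted p = 0.055), NFKBIZ (-5.01, SE 1.19, 0.0602), NFKB2 (-1.68, SE 0.42, 0.0676), NFKBIA (-1.41, SE 0.39, 0.082) and NFKB1 (-0.91, SE 0.27, 0.0922) were lower in 4 of 4 lines. The same held for RELA (-0.62, SE 0.25, edgeR adjusted p = 0.169) and RELB (-0.45, SE 0.25, 0.289). REL (-0.65, SE 0.30, edgeR adjusted p = 0.225) was lower in 3 of 4, with a ratio just above 1 in line 4. These ratios stand beside medians over all genes of 0.879, 0.609, 0.881 and 0.934 in lines 1 to 4, with 78.0% of genes lower in line 2. In line 1, RELA (0.895) and RELB (0.948) lay above the median of all genes.

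The last comparison tested the difference in IL4 response between CREBBP and AAVS pools in 1 model of all 16 libraries. All 10 differences were below 0, that is, toward a smaller response in CREBBP pools, with a median of -1.10 against 0.05 for all 21932 genes. The response of TNFAIP3 (log2 difference -3.46, SE 0.29, edgeR adjusted p = 0.000291) and of NFKB2 (-1.82, SE 0.28, edgeR adjusted p = 0.0209) was smaller, 2 of 10 members where 0.62% of genes were called in that direction. Both differences were negative in 4 of 4 lines. This test shares the AAVS IL4 libraries with the IL4 comparison in AAVS pools and the comparison of pools after IL4, so these are not separate evidence, and the part of the marker genes of other cell types was not tested.

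NFKBIE (-1.16, SE 0.25, edgeR adjusted p = 0.0697), NFKBIA (-1.49, SE 0.37, 0.109), NFKB1 (-1.05, SE 0.29, 0.151) and BCL3 (-0.96, SE 0.27, 0.162) had negative differences in 4 of 4 lines without being called. NFKBIZ (-4.36, SE 1.47, edgeR adjusted p = 0.242) and RELA (-0.64, SE 0.23, 0.276) were also negative in each line, and RELB (-0.72, SE 0.37, 0.429) and REL (-0.14, SE 0.39, 0.908) in 3 of 4. TNFAIP3 stayed called without any 1 line (edgeR adjusted p = 0.000911 to 0.0203), whereas NFKB2 lost its call without line 1 (0.22) or line 3 (0.124), where 16 and 18 genes were called in all against 140 with every line. Without line 4, NFKBIA was called as well (edgeR adjusted p = 0.0481), with 117 genes in all.

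**Figure D3:**
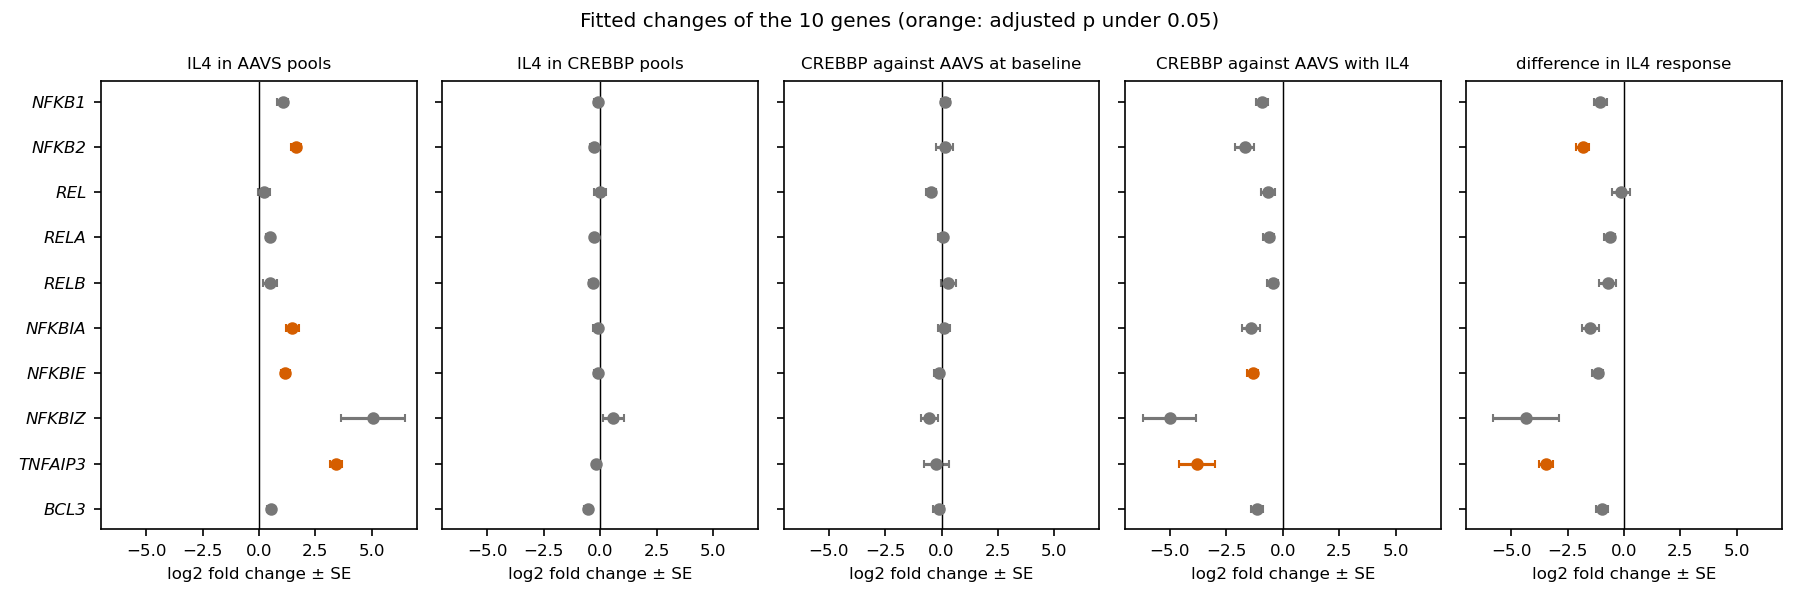
Fitted log2 fold change of each gene with its standard error in the 5 comparisons, with n = 4 lines per group. Orange marks an adjusted p under 0.05; calls were 4, 0, 0, 2 and 2 from left to right, and all 10 points lay above 0 for IL4 in AAVS pools.

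The other genes of the pathway were read from lists by role. Among 15 kinases and scaffolds, MAP3K8, the kinase Tpl2, rose with IL4 in AAVS pools (log2 fold change 2.34, SE 0.39, edgeR adjusted p = 0.0392). The median of this list was 0.22 and 10 of its genes were above baseline. Among 20 adaptors and ubiquitin enzymes, BIRC3, the ubiquitin ligase cIAP2 (2.14, SE 0.33, 0.0292), and CYLD, a deubiquitinase that restrains the pathway (1.97, SE 0.36, 0.0488), rose as well, and the median was 0.17. In these lists 1 of 15 and 2 of 20 genes were called higher, where 2.39% of all genes were. Of the 4 other IκB family genes none was called, and NFKBID, a nuclear IκB protein, had the largest value (1.25, SE 0.28, edgeR adjusted p = 0.0873).

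Target genes stood higher in the same comparison. All 24 target genes tested of 25 were above baseline, as were 10362 of all 20310 genes, with a median log2 fold change of 2.57. Of the 24, 8 rose, where 2.39% of all genes did, and the largest changes were those of IL6, IRF4, CCL22, CCR7 and CXCL8. Among the 8, IL6, IRF4, CCL22, CXCL8 and TNFAIP2 passed the count filter only through the AAVS IL4 libraries. The same held for CCL3, CCL4 and EBI3, which were not called. The direction of all these genes was fixed by the filter and is no support for a rise of target genes. The 24 genes above baseline and the median of 2.57 include them. IRF4, a lymphoid transcription factor, had a log2 fold change of 7.77 (SE 0.34, edgeR adjusted p = 0.000594) and CCR7, a homing receptor, 6.23 (SE 0.56, 0.00661), but both are also on the lists of plasma cell and of naive and memory B cell markers. IL6, an inflammatory cytokine, was at 32.3, 2.95, 81.9 and 3.58 CPM after IL4 and at most 0.123 CPM in AAVS baseline. CCL22, a chemokine, was at 1.18 to 14.3 CPM against at most 0.125, and CXCL8, the chemokine IL-8, at 3.03 to 25.6 CPM against at most 0.821. ICAM1, an adhesion molecule and textbook target chosen after its value was seen, was at 0.31 (SE 0.23, edgeR adjusted p = 0.509).

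In CREBBP pools none of the pathway genes was called with IL4, and the list medians were 0.01 for kinases and scaffolds, -0.09 for adaptors and ubiquitin enzymes, -0.08 for other IκB genes and -0.01 for the 19 target genes that passed the filter. The 19 leave out IL6, CCL22, CXCL8, TNFAIP2 and IRF4, so their median and the 2.57 in AAVS pools cover different genes. None of the pathway genes was called at baseline either. After IL4, CREBBP pools were lower than AAVS pools in MAP3K14, the kinase NIK (-1.48, SE 0.30, edgeR adjusted p = 0.0414), PRKCB, protein kinase Cβ (-1.35, SE 0.27, 0.0398), TRAF1 (-2.17, SE 0.37, 0.0273) and BIRC3 (-2.04, SE 0.35, 0.029). The calls were 2 of 15 kinases and scaffolds and 2 of 20 adaptors and ubiquitin enzymes. PRKCB was already lower at baseline, though not called (-0.98, SE 0.19, edgeR adjusted p = 0.179). Its difference in IL4 response was -0.32 (SE 0.24, edgeR adjusted p = 0.587). CREBBP pools were also lower in 9 of 24 target genes, where 3.42% of all genes were called lower. Of the 9, CCL22, IL6, IRF4, CCR7, TNFAIP2, CXCL8 and EBI3 passed the filter only through AAVS IL4. Their direction was fixed by the filter and is no support for lower target genes, and the count of 9 includes them. The 5 with the largest fitted changes, all among these genes, were CCL22, at 0 counts in all CREBBP IL4 libraries, IL6, at no more than 0.0232 CPM there, IRF4 (-8.43, SE 1.07, edgeR adjusted p = 0.0125), CCR7 (-7.76, SE 1.35, 0.0295) and TNFAIP2 (-6.71, SE 0.64, 0.00584). The difference in response was called for BIRC3 (-1.84, SE 0.36, edgeR adjusted p = 0.048), the adaptor TRAF1 (-1.67, SE 0.31, 0.0414), and the target genes IRF4, CCR7, EBI3 and CFLAR. These were 2 of 20 adaptors and ubiquitin enzymes and 4 of 24 target genes. Of all genes 0.62% were called in that direction, and none of the 15 kinases and scaffolds was.

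**Figure D4:**
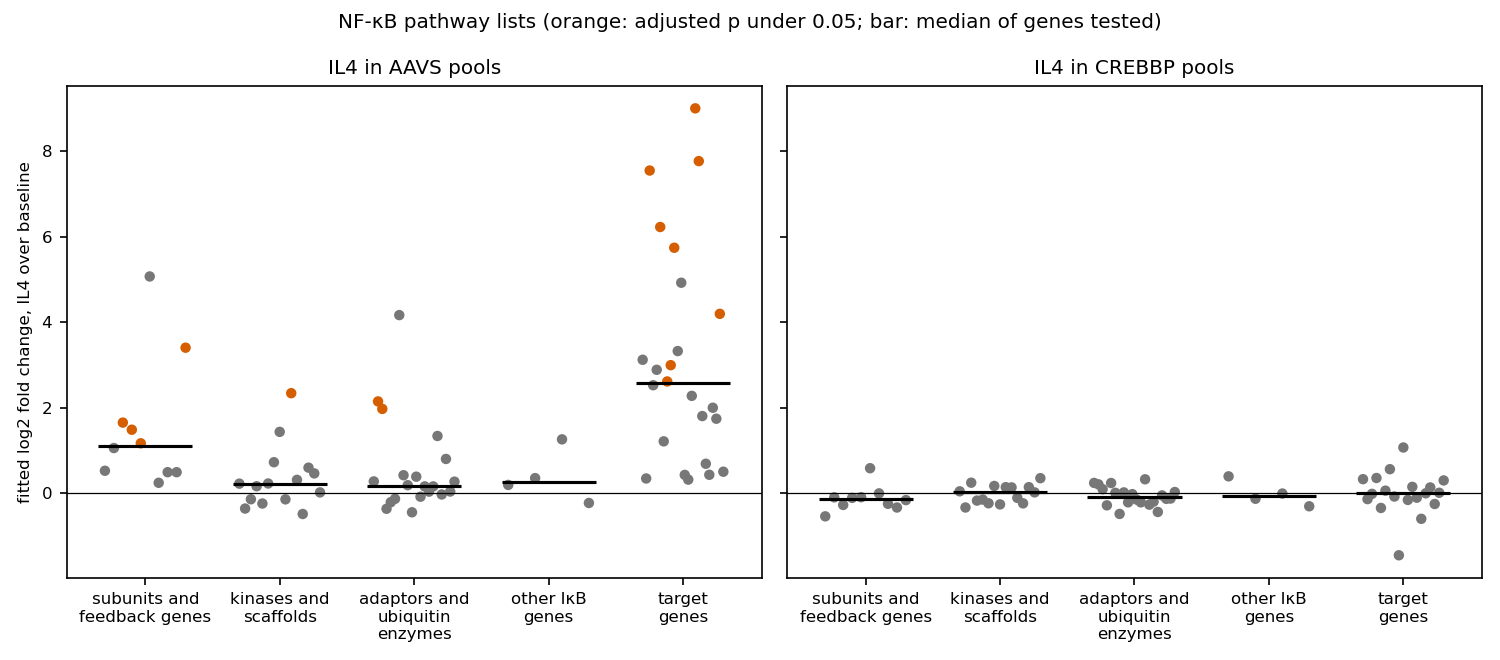
Fitted log2 fold change of each gene tested with IL4 in AAVS pools (left) and CREBBP pools (right), by list, with the list's median as a bar and an adjusted p under 0.05 in orange. Target genes in AAVS pools had a median of 2.57, and all lists in CREBBP pools had medians between -0.14 and 0.01. The target genes tested were 24 in AAVS pools and 19 in CREBBP pools, so these medians cover different genes. The 24 include genes that passed the count filter only through the AAVS IL4 libraries, whose direction was fixed by the filter.

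The genes whose profile was most like that of a called member were found by the correlation of log2 CPM, centred within lines, over the 16 libraries and 21932 genes. The libraries share lines, depth and the AAVS IL4 group, so these values are descriptions. Nearest to TNFAIP3 were SLC2A3 (Pearson r = 0.990, Spearman rho = 0.985), BHLHE40 (0.982 and 0.974) and FNIP2 (0.978 and 0.915). For NFKB2 they were PNPLA7 (0.968 and 0.965), FOSL2 (0.963 and 0.959) and NDRG1 (0.961 and 0.976), and for NFKBIA they were CBX7 (0.970 and 0.950), DENND5A (0.966 and 0.938) and APOBEC3C (0.963 and 0.944). Nearest to NFKBIE were an unnamed gene (ENSG00000176593, 0.967 and 0.743), the T-cell receptor gene TRGC1 (0.966 and 0.643) and VCAM1 (0.965 and 0.699), where the rank correlation was well below Pearson's r.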

How the data were processed

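RNA-seq measured gene expression in 16 libraries. Per the paper's methods, written for primary cells and cited for the lines, the authors used Cutadapt 2.3 for trimming, STAR 2.7.8a for alignment to GRCh38 and RSEM 1.3.3 for gene assignment. The deposited values are estimated counts per gene, given as whole numbers and not normalized. Whether the authors averaged technical replicates of the lines is not given in the sources used here.

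CPM is the count divided by the library total, times 1000000. Total counts ranged from 19649735 to 61981976. Tests used edgeR 4.0.16 (filterByExpr, TMM, quasi-likelihood, line as a block, Benjamini-Hochberg adjusted p under 0.05 over all genes tested) in R 4.3.3. Alternatives were DESeq2 1.42.0 (Wald test, and its size factors in edgeR), limma-voom (limma 3.58.1), no filter, a minimum of 10 counts in each library, no block, 1 fit of all 16 libraries, and each line left out. The pairing comes from the design, since each number stands for 1 cell line. Deviations of same-numbered libraries from the group means had median correlations of 0.409, 0.685, 0.227 and 0.596 in lines 1 to 4 (lowest -0.0782, in line 3). Each pool was 1 culture as far as the labels say. With line as a block, p-values set a change against how much that change differed between lines. Spread between cultures of 1 line is mixed into this and cannot be told apart. No 2 libraries of a group were copies (chi-square per degree of freedom at least 111).

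The fits were tested on simulated data with known changes before use. Of 100 genes simulated with a log2 change of 1, edgeR called 2 for IL4 in AAVS pools and 38 for IL4 in CREBBP pools. It called 28 for CREBBP against AAVS pools at baseline, 0 for these after IL4 and 0 for the difference in response. Of another 100 with a log2 change of 2, it called 28, 70, 72, 40 and 28 in the same order. A gene that was not called may thus still have changed.

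The members and lists were chosen with earlier results of these data known. Named were all 10 members, the called genes of each pathway list (if over 5 in a comparison, the 5 with the largest changes) and the 3 most similar genes of each called member. Gene positions and lengths came from GENCODE release 44, and promoters from RefSeq.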

Additional observations from a re-analysis of the deposited data

Results flagged for a closer look

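Of 40 sets of 4 libraries (10 genes in 4 groups), 5 held a library far from the other 3 by Dixon's criterion, which chance passes in about 1 of 20 sets. NFKBIZ in line 2 was the high library in AAVS baseline (31.4 CPM, the next at 1.20), CREBBP baseline (25.3 CPM, the next at 1.31) and CREBBP IL4 (18.3 CPM, the next at 1.41). TNFAIP3 in line 2 was high in CREBBP baseline (77.6 CPM, the next at 14.2). REL in line 4 was high in CREBBP baseline (814 CPM, the next at 393).

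The IL4 response differed between CREBBP and AAVS pools, by a test of the difference itself, for TNFAIP3 (-3.46 on the log2 scale, edgeR adjusted p = 0.000291) and NFKB2 (-1.82, edgeR adjusted p = 0.0209), each lower in 4 of 4 lines. The AAVS IL4 libraries behind both were high in marker genes of other cell types, whose part was not tested.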

How the results depend on the processing

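The share of all genes called by each setting stands in parentheses. The count of members called for IL4 in AAVS pools (4, with 2.4% of genes) was 1 with a minimum of 10 counts per library (0.174%), 2 without the replicate block (2.3%), 5 without a filter (4.85%), 6 by DESeq2 (10.2%), 5 by limma-voom (4.23%), 6 with all 16 libraries in 1 fit (5.79%), 3 with DESeq2 size factors (2.46%) and 1 to 3 with a line left out (0.31% to 4.93%). For CREBBP against AAVS with IL4 (2, with 4.39%) it was 6 without a filter (9.34%), 5 with the minimum (5.02%), 0 without the replicate block (2.76%), 7 by DESeq2 (21.2%), 6 by limma-voom (10.4%), 8 with all 16 libraries in 1 fit (4393 of 21932 genes), and 0 to 7 with a line left out (0.124% to 12.4%). For the difference in response (2, with 0.638%) it was 5 without a filter (3.0%), 0 without the replicate block (0.00912%), 7 by DESeq2 (5.02%), 4 by limma-voom (2.68%), and 1 to 3 with a line left out (0.0724% to 1.19%). The counts for IL4 in CREBBP pools and for CREBBP at baseline were 0 in every setting run.

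Some uncalled log2 fold changes turned direction. For IL4 in AAVS pools, leaving out a line gave REL -0.082 to 0.44. For IL4 in CREBBP pools REL was at 0.0166 with DESeq2 size factors, 0.0165 by DESeq2 and 0.12 without the replicate block, and leaving out a line gave REL -0.24 to 0.27, NFKB1 -0.18 to 0.024 and NFKBIA -0.37 to 0.0088. At baseline TNFAIP3 was at 0.66 without the replicate block, and leaving out a line gave TNFAIP3 -0.96 to 0.34, NFKB2 -0.34 to 0.51, RELB -0.11 to 0.61, NFKBIA -0.12 to 0.46, RELA -0.036 to 0.19 and BCL3 -0.31 to 0.040. For the difference in response REL was at 0.021 without the replicate block. The cause was not tested.

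DESeq2's size factors in edgeR moved the median of all genes by at most 0.072 on the log2 scale. NFKBIZ rested on 11 to 72 counts in lines 1, 3 and 4 outside AAVS IL4, so its ratios there are the least precise.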
